A study of Psammomys obesus with 8 samples.

Results

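The genes described here are 6 that store, release and take up fatty acids: Lpl, Pnpla2 and Lipe (triglyceride lipases), Dgat1 and Dgat2 (acyltransferases that complete triglyceride synthesis) and Cd36 (a fatty acid uptake protein). They were read in methylated DNA from the hypothalamus of the fat sand rat (Psammomys obesus), a rodent of deserts that readily becomes obese and diabetic on rich food. The members were all contigs (assembled stretches of sand rat DNA) whose mouse match lay inside one of these genes. There were 25 such contigs of 548060 in the table, and 6 genes of the 19098 that had a contig inside them. Lpl had 4 contigs, Pnpla2 3, Lipe 2, Dgat1 2, Dgat2 9 and Cd36 5.

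The study had 8 libraries, each from hypothalamus of males at 16 weeks of age. There were 4 libraries named standard-low, with a diet label of standard lipid, and 4 named low-low, with a diet label of low lipid. The study's title refers to the diet of the parents and its design text to that of the fathers. The labels do not say what each word of a group's name stands for, nor whether each library came from its own animal, father or litter. A p-value here therefore measures the spread between libraries, which may in part be technical.

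Cytosine methylation in mammals lies mostly at CpG pairs, and the MethylMiner assay used here pulls down DNA fragments through a methyl-CpG-binding protein before sequencing. A count is a number of captured reads over a contig. It grows with the contig's length and its number of methylated CpG pairs, and is not a methylation level per site. Hypothalamus holds many cell types, and a change of methylation within cells cannot be told apart from a change in the mix of cells. Triglycerides are carried in blood by lipoproteins and stored in cells as lipid droplets. Lpl acts outside the cell, on the vessel wall, where it frees fatty acids from circulating lipoproteins, whereas Pnpla2 and then Lipe cleave stored triglyceride inside the cell. The hypothalamus senses fatty acids as part of the control of feeding and energy use.

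The counts behind single contigs were low. A member contig had a mean of 10.9 to 86.6 reads per library, in libraries of 11646180 to 12156525 reads in the standard-low group and 12528388 to 13533441 reads in the low-low group. Values below are CPM, the counts scaled by library size after TMM adjustment, and fold changes are standard-low over low-low on the log2 scale, from edgeR. The libraries also differed in how much of their DNA came from CpG-dense contigs, those with at least 3 CpG pairs per 100 bases. That share was 19.1, 17.8, 20.8 and 18.2% in standard-low 1 to 4, against 19.4, 20.8, 20.7 and 20.7% in low-low 1 to 4. It was lower in 3 of the 4 standard-low libraries than in any low-low library. Over all 79694 contigs with 3 to 5 CpG pairs per 100 bases the median log2 fold change was −0.10. Over the 6584 contigs with at least 5 it was −0.20, and over the 215714 contigs with under 2 it was 0.07.

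Of the 25 member contigs, 10 shared a stretch with at least 100 other contigs of the table (BLAST, E-value at most 1e-05) and are called repeat-sharing here. They were 5 of the 9 Dgat2 contigs, 4 of the 5 Cd36 contigs and 1 of the 4 Lpl contigs. The contigs nearest to that limit were Lpl contig 4013486, with 66 similar contigs, and Dgat2 contig 3110858, with 658. None of the 25 had a near-identical copy, meaning at least 95% identity over at least 50% of its length. The stretches that 4 Dgat2 contigs, 1 Cd36 contig and 1 Lpl contig have in common are shown because the contigs resemble one another there. Whether these are the bases by which the Dgat2 contigs match the mouse gene was not tested. CpG pairs are in capitals and all other bases in lower case, and each stretch is written on the strand that lets the lines be compared.
Dgat2 contig 2359360: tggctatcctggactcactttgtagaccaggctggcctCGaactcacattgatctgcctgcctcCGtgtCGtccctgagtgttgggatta
Dgat2 contig 1880432: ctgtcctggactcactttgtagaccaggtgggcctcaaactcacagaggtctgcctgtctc
Dgat2 contig 2262726: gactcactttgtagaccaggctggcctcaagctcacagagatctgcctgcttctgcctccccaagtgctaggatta
Dgat2 contig 3033349: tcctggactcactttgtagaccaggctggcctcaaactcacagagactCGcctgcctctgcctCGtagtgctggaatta
Cd36 contig 3591523: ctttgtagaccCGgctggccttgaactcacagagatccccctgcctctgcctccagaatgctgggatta
Lpl contig 3295509: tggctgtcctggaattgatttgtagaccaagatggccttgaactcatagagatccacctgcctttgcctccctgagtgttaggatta

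The 4 Dgat2 contigs all matched the mouse gene within chr7:99160005-99160114 (mouse positions as the table gives them, build not given in the sources used here). Their matches covered 65 to 100 bases of contigs that were 218 to 1433 bases long. Contig 3033349, for example, matched over 90 bases at chr7:99160010-99160096, which is 6.28% of its length. The longest run of letters that all 4 stretches hold is gactcactttgtagaccagg, 20 bases without a CpG pair. It or its reverse complement stands in 588 of the 548060 contigs (0.107%), and 4 member contigs hold it. As background, letters of this kind occur in the short interspersed repeats of rodent genomes. The 4 contigs were similar to 10744, 9485, 15448 and 12322 other contigs in the order printed, Cd36 contig 3591523 to 18632 and Lpl contig 3295509 to 15828. Aligned to one another, the 4 Dgat2 contigs were 77.6 to 88.7% identical over 61 to 98 bases. They are thus different sequences that matched the same mouse stretch. Which of them, if any, lie in the sand rat's own Dgat2 gene was not tested, and the Dgat2 sum below counts all 4.

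Lipe and Pnpla2 contigs were of another kind, with 0 of 5 repeat-sharing. The CpG-densest stretches of the most abundant Lipe contig (bases 55 to 354 of 995) and of the most abundant Pnpla2 contig (bases 537 to 836 of 1029) are shown because these genes had the highest captured level per kilobase of the 6. They are followed by the whole of the Dgat1 contig with the lower p-value and of the 1 Cd36 contig that was not repeat-sharing. Their mouse matches were chr7:25387954-25388622 for Lipe, chr7:141458790-141459813 for Pnpla2, chr15:76503789-76504025 for Dgat1 and chr5:17880984-17881149 for Cd36, each inside the gene. Their position in exons or introns was not analysed here.
Lipe contig 4054131: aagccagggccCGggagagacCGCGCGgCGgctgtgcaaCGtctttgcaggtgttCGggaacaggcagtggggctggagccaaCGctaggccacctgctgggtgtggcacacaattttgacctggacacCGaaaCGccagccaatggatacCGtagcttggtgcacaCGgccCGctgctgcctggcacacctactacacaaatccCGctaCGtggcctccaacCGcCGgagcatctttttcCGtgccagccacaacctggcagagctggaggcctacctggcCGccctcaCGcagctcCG
Pnpla2 contig 1457142: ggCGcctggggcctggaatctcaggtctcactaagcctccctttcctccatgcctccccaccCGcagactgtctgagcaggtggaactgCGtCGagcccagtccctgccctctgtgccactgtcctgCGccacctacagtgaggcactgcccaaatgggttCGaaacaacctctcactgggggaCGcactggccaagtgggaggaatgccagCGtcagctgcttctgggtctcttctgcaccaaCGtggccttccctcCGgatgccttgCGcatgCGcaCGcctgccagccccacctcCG
Dgat1 contig 1523097: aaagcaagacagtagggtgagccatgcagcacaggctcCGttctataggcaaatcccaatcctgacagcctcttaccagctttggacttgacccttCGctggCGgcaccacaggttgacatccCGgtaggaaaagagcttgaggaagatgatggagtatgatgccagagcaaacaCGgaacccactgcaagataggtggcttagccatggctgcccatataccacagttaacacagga
Cd36 contig 2550652: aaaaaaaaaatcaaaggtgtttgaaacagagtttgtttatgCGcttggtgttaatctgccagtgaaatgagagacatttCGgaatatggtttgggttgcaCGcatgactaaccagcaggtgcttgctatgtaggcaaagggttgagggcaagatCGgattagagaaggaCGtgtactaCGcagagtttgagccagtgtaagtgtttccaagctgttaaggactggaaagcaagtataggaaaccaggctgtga

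The Lipe window holds 21 CpG pairs and the Pnpla2 window 14, each in 300 bases, while the Dgat1 contig holds 5 in 238 bases and the Cd36 contig 6 in 253. Reading frames without a stop codon run through 297 bases of the Lipe window, all 300 bases of the Pnpla2 window and 237 bases of the Dgat1 contig, and through 213 bases of the Cd36 contig. These are descriptions of the letters and do not place the windows in exons.

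No member passed the test of a difference between the diets. Among the 25 contigs, 0 had an adjusted p under 0.05 (edgeR, Benjamini-Hochberg over all contigs), where 147 of 548060 did (0.0268%), and 0 had an unadjusted p under 0.05, where 5.68% of all contigs did. In 0 of the 25 did the libraries of one group all lie above those of the other, which 3.24% of all contigs showed (1.61% with standard-low lower). The log2 fold change was below 0 in 14 contigs and above 0 in 11, with a median of −0.05 and a range of −0.33 to 0.56, beside a share below 0 of 49.7% over all contigs and 52.6% over the 125082 contigs inside genes. Adjusted p-values of the members ran from 0.890 to 0.995 (edgeR). DESeq2 and limma voom likewise called 0 of the 25.

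With the contigs of each gene summed, 0 of the 6 genes passed the threshold, where 1 of 19098 genes did (0.00524%), and 0 had an unadjusted p under 0.05 (6.03% of genes). Of the 6, 5 had a log2 fold change below 0, beside 58.6% of all genes. Dgat2 was the 1 gene whose groups did not overlap, which 3.48% of all genes showed, and it was higher in standard-low, as were 1.4% of genes.

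**Figure D1:**
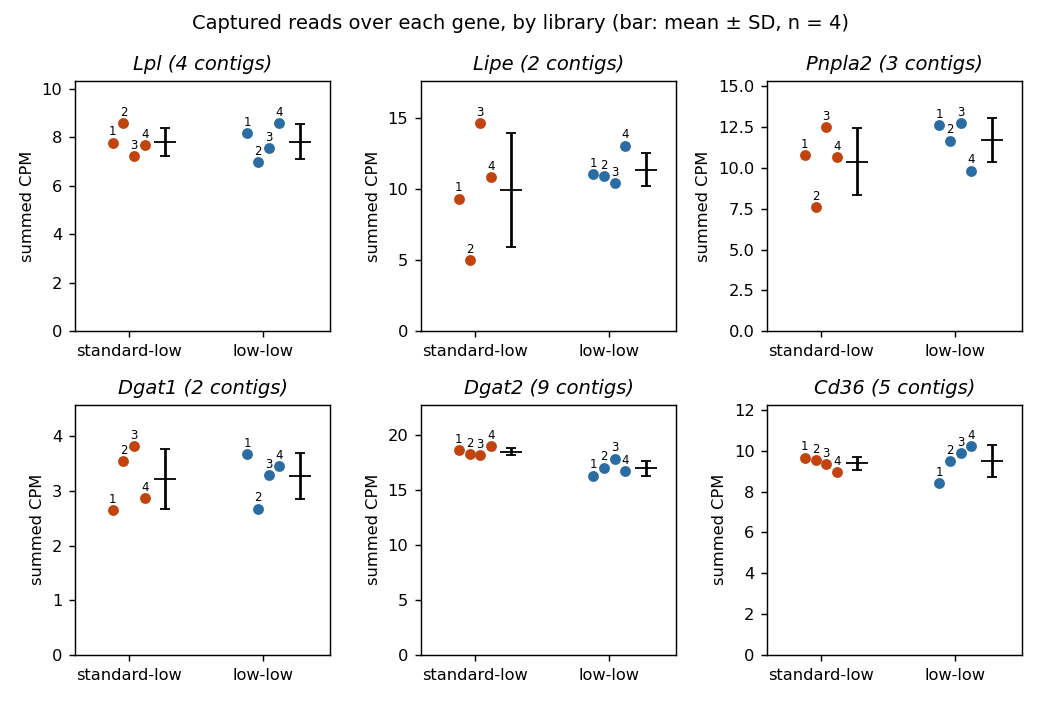
Summed CPM of each gene (vertical axes, from 0) in standard-low and low-low libraries, with library numbers beside the points and bars for the mean ± SD of 4 libraries. The Dgat2 points separate narrowly, at 18.2 to 18.9 CPM in standard-low and 16.3 to 17.8 CPM in low-low, while standard-low Lipe spreads from 4.98 to 14.7 CPM.

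Lpl, the lipoprotein lipase of the vessel wall, had nearly the same mean captured level in both diets. Its summed level was 7.79, 8.60, 7.21 and 7.69 CPM in standard-low 1 to 4, against 8.17, 6.98, 7.55 and 8.60 CPM in low-low 1 to 4. The groups overlapped over nearly their whole range, with means of 7.82 ± 0.578 CPM in standard-low and 7.83 ± 0.710 CPM in low-low (SD, n = 4 each). The fold change had a 95% interval of 0.842 to 1.19 times (adjusted p = 0.9998, edgeR). The most abundant contig, 4013486, had a log2 fold change of −0.14 ± 0.20 (SE), and contig 839230, which had the lowest p of the 4, one of 0.30 ± 0.23 (adjusted p = 0.971 and 0.936, edgeR). Contig 839230 had 2.65, 2.53, 1.41 and 2.87 CPM in standard-low 1 to 4, against 1.91, 1.71, 1.77 and 2.30 CPM in low-low 1 to 4. Standard-low 3 was the lowest of all 8 libraries there, and the other standard-low libraries were the highest. The log2 fold change of contig 839230 was 0.48 without standard-low 3, 0.19 without standard-low 4 and −0.06 with the share of CpG-dense DNA as a covariate, an alternative added after seeing the data. That of contig 4013486 was −0.075 without low-low 3. A further 10 contigs had Lpl as their nearest gene, 1081 to 50607 bases away, and 0 of them had an unadjusted p under 0.05, as had 5.68% of all contigs.

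Pnpla2, the enzyme that takes the first fatty acid off stored triglyceride, had 10.8, 7.59, 12.5 and 10.6 CPM in standard-low 1 to 4, against 12.6, 11.7, 12.8 and 9.83 CPM in low-low 1 to 4. Standard-low 2 was the lowest library and all others lay between 9.83 and 12.8 CPM. Pnpla2 had a log2 fold change of −0.17 ± 0.13 (SE), with a fold interval of 0.733 to 1.07 and an adjusted p of 0.834 (edgeR). All 3 contigs had a negative log2 fold change, of −0.05, −0.22 and −0.17, and 0 of them passed the test. Contig 1457142, which was both the most abundant and the one with the lowest p, had 79, 56, 96 and 73 reads in standard-low 1 to 4, against 97, 97, 104 and 77 reads in low-low 1 to 4. Its groups overlapped, with standard-low 2 again the lowest.

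Lipe, the hormone-sensitive lipase that acts after Pnpla2, had the widest spread of the 6 genes in standard-low. It had 9.33, 4.98, 14.7 and 10.8 CPM in standard-low 1 to 4, against 11.1, 10.9, 10.4 and 13.1 CPM in low-low 1 to 4. The lowest and the highest library were both standard-low, and the coefficient of variation was 40.3% in standard-low and 10.2% in low-low, a difference that was not tested. The log2 fold change was −0.19 ± 0.19 (SE), with a fold interval of 0.666 to 1.15 and an adjusted p of 0.873 (edgeR). Contig 4054131, the most abundant, had 72, 37, 111 and 83 reads in standard-low 1 to 4, against 100, 107, 86 and 97 reads in low-low 1 to 4. Contig 1667136 had 37, 22, 66 and 45 reads in standard-low 1 to 4, against 45, 40, 44 and 73 reads in low-low 1 to 4. Both contigs thus put the standard-low libraries in the same order, while the low-low libraries stood in different orders. The 1 contig beside Lipe, 177 bases away, had a log2 fold change of −0.13 and did not pass the test.

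The Lipe value turned on single libraries. Without standard-low 2 the log2 fold change was 0.03, and without standard-low 3 it was −0.44 (adjusted p = 0.994 and 0.187, edgeR). Pnpla2 had −0.05 without standard-low 2 and −0.28 without standard-low 3. Their most abundant contigs moved likewise, with −0.0044 for Lipe contig 4054131 and −0.05 for Pnpla2 contig 1457142 without standard-low 2, and −0.46 and −0.29 without standard-low 3. Standard-low 2 had the lowest share of CpG-dense DNA of all 8 libraries (17.8%) and the lowest captured level of both genes. Standard-low 3 had the highest share (20.8%) and the highest level of Lipe. Low-low 2, 3 and 4 had almost the same share, at 20.8, 20.7 and 20.7%. Their levels were 10.9, 10.4 and 13.1 CPM for Lipe and 11.7, 12.8 and 9.83 CPM for Pnpla2. Low-low 1, at 19.4%, had 11.1 CPM for Lipe and 12.6 CPM for Pnpla2. Whether the share set these levels was not tested. Lipe had 4.97 CpG pairs per 100 bases, a higher density than 98.8% of genes, and Pnpla2 2.85. With the share of CpG-dense DNA as a covariate, the log2 fold change was 0.17 for Lipe and −0.02 for Pnpla2, and neither passed the test (adjusted p = 0.998 for each, edgeR).

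**Figure D2:**
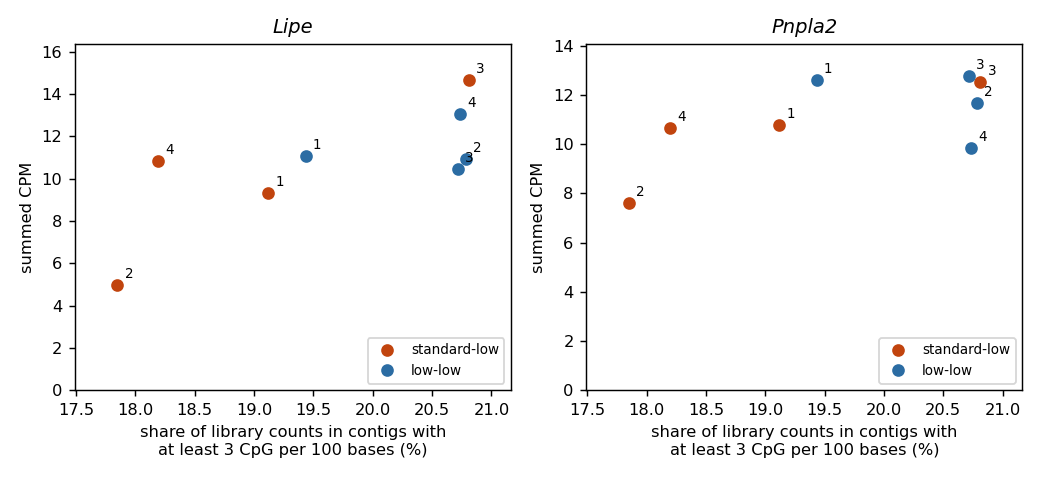
Summed CPM of Lipe and of Pnpla2 (vertical axes, from 0) against the share of each library's counts in contigs with at least 3 CpG pairs per 100 bases (horizontal axes, %), with library numbers. Standard-low 2 sits lowest on both axes, at 17.8%, 4.98 CPM for Lipe and 7.59 CPM for Pnpla2.

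Dgat1 and Dgat2 both join the last fatty acid to diacylglycerol but belong to different protein families. Dgat1, a protein of the endoplasmic reticulum membrane, had 2.65, 3.54, 3.81 and 2.87 CPM in standard-low 1 to 4, against 3.67, 2.67, 3.29 and 3.46 CPM in low-low 1 to 4. The groups covered almost the same range. Dgat1 had a log2 fold change of −0.02 ± 0.18 (SE), with a fold interval of 0.760 to 1.28 (adjusted p = 0.991, edgeR). Its contigs pointed opposite ways, with 0.11 ± 0.25 for contig 4511598 and −0.18 ± 0.27 for contig 1523097 (log2 fold change, SE), and neither passed the test. The value of contig 4511598 was 0.018 without low-low 2, and that of contig 1523097 was −0.0011 without low-low 1 and −0.32 without standard-low 3.

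Dgat2, the acyltransferase found at the endoplasmic reticulum and on lipid droplets, had 18.6, 18.2, 18.2 and 18.9 CPM in standard-low 1 to 4, against 16.3, 17.0, 17.8 and 16.7 CPM in low-low 1 to 4. Every standard-low library lay above every low-low library, but the gap was small: the means were 18.5 ± 0.358 CPM in standard-low and 16.9 ± 0.659 CPM in low-low (SD, n = 4 each), a ratio of 1.09. The difference did not pass the test, with a log2 fold change of 0.12 ± 0.08 (SE), a fold interval of 0.967 to 1.23 and an adjusted p of 0.821 (edgeR). Of the 9 contigs, 7 had a log2 fold change above 0, and in 0 of the 9 did the groups separate.

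Repeat-sharing contigs held most of the Dgat2 counts, and the 4 contigs that were not repeat-sharing held 26.9%. These 4 summed to 4.88, 4.22, 4.81 and 6.0 CPM in standard-low 1 to 4, against 3.97, 4.38, 5.62 and 4.22 CPM in low-low 1 to 4. Over them the groups overlapped, and the log2 fold change was 0.13 ± 0.16 (SE, adjusted p = 0.896, edgeR), in an alternative added after seeing the data. Contig 3033349, the most abundant, had 72, 52, 64 and 58 reads in standard-low 1 to 4, against 58, 79, 62 and 60 reads in low-low 1 to 4. Contig 2359360, with the lowest p, had 11, 15, 18 and 6 reads in standard-low 1 to 4, against 7, 11, 7 and 12 reads in low-low 1 to 4. The groups overlapped in both contigs, and the log2 fold changes were 0.06 ± 0.16 and 0.56 ± 0.36 (SE, adjusted p = 0.986 and 0.909, edgeR). Without standard-low 1 the value of contig 3033349 was −0.03, and with the share of CpG-dense DNA as a covariate it was 0.20. The value of contig 2359360 was 0.34 without standard-low 3 and 0.90 with the covariate.

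**Figure D3:**
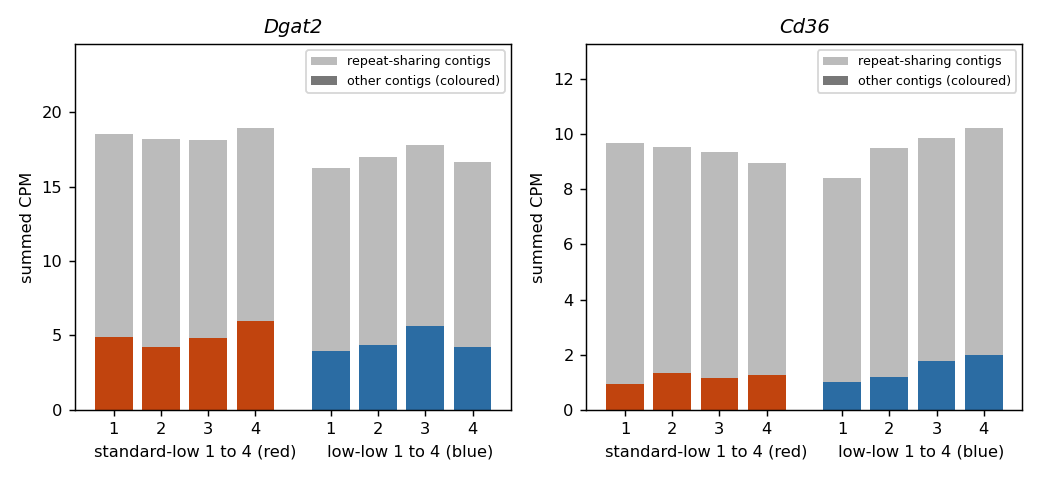
Summed CPM of Dgat2 and Cd36 by library (bars from 0), split into repeat-sharing contigs (grey) and other contigs (red for standard-low, blue for low-low). The coloured part of Dgat2 runs from 4.22 to 6.0 CPM in standard-low and from 3.97 to 5.62 CPM in low-low.

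Cd36, a membrane protein that binds long-chain fatty acids, had 9.67, 9.53, 9.37 and 8.96 CPM in standard-low 1 to 4, against 8.40, 9.51, 9.87 and 10.2 CPM in low-low 1 to 4. All standard-low libraries lay within the range of the low-low libraries. The log2 fold change was −0.02 ± 0.11 (SE), with a fold interval of 0.845 to 1.15 (adjusted p = 0.984, edgeR). Contig 3289599 had the lowest p of all 25 member contigs, with 1.45, 1.94, 1.24 and 1.18 CPM in standard-low 1 to 4, against 0.993, 0.743, 1.45 and 0.768 CPM in low-low 1 to 4. Here 1 low-low library, number 3, reached into the standard-low range. The log2 fold change of this contig was 0.56 ± 0.30 (SE, adjusted p = 0.890, edgeR), and it was repeat-sharing, with 1942 similar contigs. The most abundant contig, 2442971, also repeat-sharing, had a log2 fold change of −0.15 ± 0.18 (SE), and −0.08 without low-low 2. It matched mouse Cd36 over 44 bases, 5.21% of its length. Contigs 1012024 and 3591523, both repeat-sharing, matched over 49 and 94 bases. Whether these contigs lie in the sand rat's own Cd36 gene was not tested, and the Cd36 sum counts them.

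A single Cd36 contig, 2550652, whose whole sequence is printed above, was not repeat-sharing, and it held 14.2% of the gene's counts. It had 11, 16, 14 and 15 reads in standard-low 1 to 4, against 13, 16, 22 and 26 reads in low-low 1 to 4. The groups overlapped, and its log2 fold change was −0.33 ± 0.29 (SE, adjusted p = 0.946, edgeR).

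**Figure D4:**
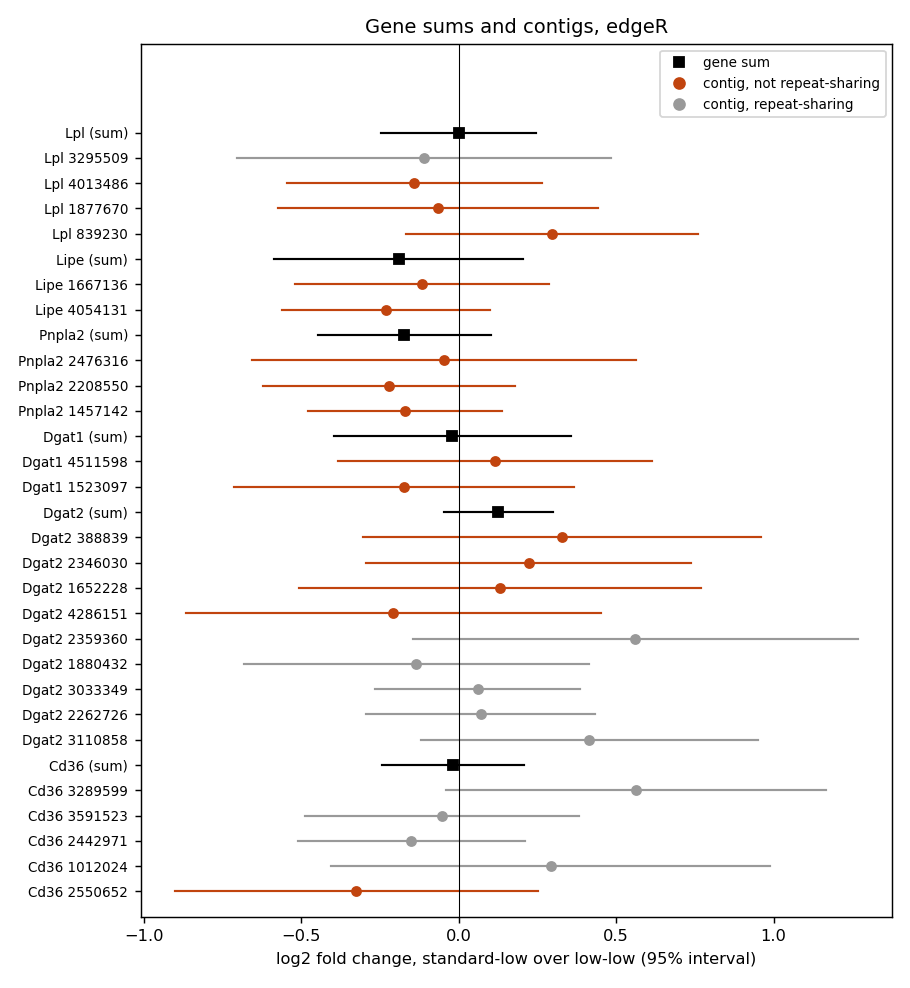
Log2 fold change, standard-low over low-low (horizontal axis), with 95% intervals from edgeR, for the 6 gene sums (black squares) and 25 contigs (circles, grey where repeat-sharing and red where not). Every interval includes 0, and the contig estimates run from −0.33 to 0.56.

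Captured levels were also set side by side between the genes, per kilobase of contig and as the mean of all 8 libraries. Lipe had 6.46 CPM per kb, Pnpla2 6.05, Dgat1 5.09, Cd36 3.65, Dgat2 3.56 and Lpl 3.04. Neighbours in this order overlapped between libraries except Dgat1 and Cd36. There the lowest Dgat1 library (4.16 CPM per kb) lay above the highest Cd36 library (3.95 CPM per kb). Contigs that were not repeat-sharing held only 14.2% of the Cd36 counts and 26.9% of the Dgat2 counts behind these levels. For Cd36 that was contig 2550652 alone, which had 5.27 CPM per kb, above the Dgat1 mean, at a mean of 16.6 reads. Among the 19098 genes, Lipe, Pnpla2 and Dgat1 stood at the 97.9, 96.7 and 90.2 percentiles of this level, and Cd36, Dgat2 and Lpl at the 50.05, 45.5 and 21.6 percentiles.

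CpG density followed this order only in part. Lipe and Pnpla2 stood at the 98.8 and 78.8 percentiles of CpG density, but Dgat1 at the 13.9 percentile. Per 100 CpG pairs, Dgat1 had the highest level of the 6, 27.1 CPM, and Lipe the lowest, 13.0 CPM, with Pnpla2 at 21.2, Dgat2 at 17.5, Cd36 at 16.9 and Lpl at 16.0 CPM. Lipe thus came first per kilobase and last per CpG pair. Dgat1 rested on 2 contigs, 0.638 kb with 12 CpG pairs in all. No contig had a summed count under 81 reads over the 8 libraries, so short contigs with a low level would be missing. How far this set the ranks of Dgat1 was not tested. Over the 25 contigs, CpG density and CPM per kb had a Spearman rho of 0.72, beside 0.51 over the 125082 contigs inside genes. Contigs share their libraries and depth, so these are descriptions.

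**Figure D5:**
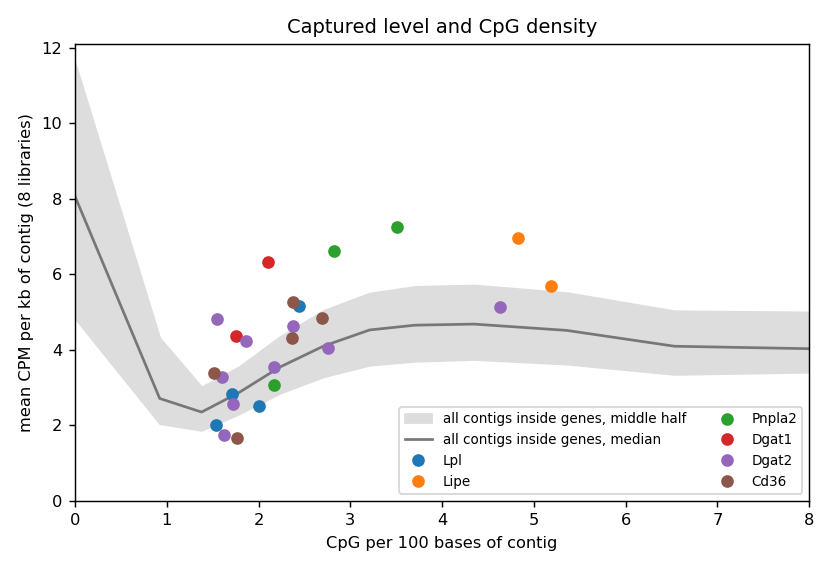
Mean CPM per kb over 8 libraries (vertical axis) against CpG pairs per 100 bases (horizontal axis) for the 25 contigs, coloured by gene, over the median (grey line) and the middle part (grey band, quartile to quartile) of all 125082 contigs inside genes. The Lipe contigs lie farthest right, at 4.82 and 5.18 CpG pairs per 100 bases, and a Pnpla2 contig is highest, at 7.24 CPM per kb.

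In how they varied over the 8 libraries, Lipe and Pnpla2 were the most alike of the 6 genes (Pearson r of log2 CPM = 0.77). Among 11969 other genes with a mean of at least 5 CPM, the single gene most like each was Hsf2bp for Pnpla2 (r = 0.99), Tnks2 for Lpl (0.95), Slc5a8 for Dgat2 (0.97) and Pdxp for Cd36 (0.97). For Dgat1 it was Grin2a (0.97) among 11970 genes. Each is the highest of many correlations over 8 libraries and is given as a description.

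The wider triglyceride pathway was read from a list of 65 genes by role, of which 58 had a contig inside the gene. On summed counts 0 passed the threshold (lowest adjusted p = 0.807, edgeR), where 0.00524% of all genes did. At an unadjusted p under 0.05 there was 1 higher and 1 lower gene of the 58, a smaller share than the 6.03% of all genes. The log2 fold change was below 0 in 44 of 58 genes, with a median of −0.08, beside 58.6% and −0.03 over all genes. The summed CPM of the 58 genes overlapped, at 664 to 775 in standard-low and 741 to 762 in low-low. By role, it was below 0 in 8 of 11 lipases and their cofactors, 5 of 7 regulators of lipoprotein lipase, 9 of 14 synthesis genes, 13 of 15 uptake and activation genes and 9 of 11 lipid droplet genes. The list holds the 6 genes above, and no test of the list was made.

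Other pathway genes with low p-values are given next, and 0 of them passed the adjusted threshold. Apoc3, an apolipoprotein that inhibits lipoprotein lipase, had 0.941, 0.675, 0.580 and 0.930 CPM in standard-low 1 to 4, against 1.07, 1.19, 1.04 and 1.31 CPM in low-low 1 to 4. Here all standard-low libraries lay below all low-low libraries, as in 2.08% of genes, with a log2 fold change of −0.56 ± 0.30 (SE), at its 1 contig (adjusted p = 0.807, edgeR). With the share of CpG-dense DNA as a covariate, the value of Apoc3 was −0.65. Its contig dropped out when a mean of at least 20 counts was required. Apoa5, an apolipoprotein that aids lipoprotein lipase, had a log2 fold change of −0.36 ± 0.16 (SE), and its groups overlapped. Its value was −0.10 with the share of CpG-dense DNA as a covariate. Agpat5, an acyltransferase of an earlier step of synthesis, had 0.26 ± 0.14 (log2 fold change, SE), again with overlapping groups, and 0.15 with that covariate.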

How the data were processed

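Methylated DNA from hypothalamus was captured with MethylMiner and sequenced. Per the file headers, the authors deposited whole-number read counts per contig and library, with each contig's sequence and, where found, a mouse match with the nearest mouse gene and how far off it lay. FastQC and BWA were used, per the submitters' processing notes; versions, assembler and mouse build are not given in those sources. Of 548060 contigs, 208288 had a mouse match, so gene names rest on similarity to mouse. The lowest summed count over the 8 libraries was 81, and how reads that fit several repeat copies were placed cannot be seen in the table. Columns were tied to libraries by the header's order.

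For the tests, edgeR 4.0.16 (R 4.3.3) was run on the deposited counts (TMM, glmQLFit, glmQLFTest, two-sided), standard-low against low-low, with Benjamini-Hochberg adjustment over all contigs, or over all 19098 genes for counts summed over contigs inside a gene, at 0.05. Contigs needed a mean of 10 counts, which removed 0 of them. The scripts were tested on simulated data. Similar contigs were found with BLAST 2.17.0. CPM values are counts scaled by the TMM-adjusted library size. The report names the 6 genes, each with its most abundant contig and its contig with the lowest p, and the 4 other pathway genes with the lowest p; a result that concerns a withheld item is not reported here. The members, gene lists and marker lists were chosen with earlier results of these data known. Within each group, no libraries had identical counts. The chi-square per degree of freedom between pairs of libraries was 1.25 to 1.93 in standard-low and 1.24 to 1.30 in low-low. No p-value was taken from it, and it cannot tell libraries of separate animals from repeat libraries of the same DNA. Same-numbered libraries of the groups did not deviate together, so numbers were not treated as pairs. Alternatives were DESeq2 1.42.0, limma 3.58.1 voom, other scalings and filters, a replicate block, each library left out, and other choices of contigs.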

Additional observations from a re-analysis of the deposited data

How the results depend on the processing

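In 17 alternatives 0 member contigs were called, and in 16 alternatives 0 pathway genes. The alternative with no filter repeats the main fit in both, because the filter removed 0 contigs. Over the whole table, 147 contigs were called by edgeR, 32 by DESeq2, 50 by limma voom, 81 with a mean of at least 20 counts and 82 with the CpG-dense share as a covariate (added after seeing the data). Leaving out 1 library gave 68 to 207, the lowest without low-low 2. For summed genes the count was 1 by edgeR, 2 by DESeq2, 0 by voom, 2 with the covariate and 0 to 30 with 1 library left out, the highest without standard-low 3.

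The sums of Dgat2 (0.10 to 0.16) and Pnpla2 (−0.28 to −0.02) kept their sign in all 20 alternatives, on the log2 scale as below. Some of the 20 left a sum's contigs unchanged and so could hardly move it. Those were no filter and contigs at any distance for both genes, and for Pnpla2 also the choices on repeat-sharing and match length. Lpl, at −0.0005, turned positive under DESeq2 (0.0024), voom (0.0018), RLE factors (0.0024), library totals alone (0.013), a mean of at least 20 counts (0.058), without its most abundant contig (0.076) and without repeat-sharing contigs (0.019, added after seeing the data). Dgat1 turned positive with a mean of at least 20 counts (0.15) and with the covariate (0.010). Cd36 did so with the covariate (0.037), with mouse matches of at least 100 bases (0.10) and without its most abundant contig (0.067), and Lipe with the covariate (0.17). With the covariate, Lpl contig 839230 had −0.057, Pnpla2 contig 1457142 0.032 and Lipe contig 4054131 0.10. With 1 library left out, Lpl ran from −0.052 to 0.048, Lipe from −0.44 to 0.031, Dgat1 from −0.11 to 0.061, Cd36 from −0.072 to 0.019 and Dgat2 contig 3033349 from −0.032 to 0.15. The cause of these changes was not tested, and none of the values that changed sign passed the test.

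Same-numbered libraries showed correlations of deviations from the group means of −0.03, 0.06, 0.16 and −0.03, and 1 of 4 standard-low libraries correlated best with its own number. With the replicate number as a block, 206 contigs and 3 genes were called, 0 of them members, and the Lpl sum had 0.0010.

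Depth limits single contigs: at a mean of 10.9 reads, Dgat2 contig 2359360 had a 95% interval of −0.15 to 1.27. Repeat-sharing contigs can hold reads of other copies, and the covariate overlaps with the diet groups.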

Other observations

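Captured reads over marker genes of cell types do not measure expression and cannot check the labelled tissue. Of lists for neurons, oligodendrocytes, astrocytes, microglia, endothelium and adipocytes, 0 genes were called (edgeR), where 0.00524% of all genes were. At an unadjusted p under 0.05 there was 1 higher neuron gene, 1 lower oligodendrocyte gene and 1 lower microglia gene, where 6.03% of all genes passed. Over all genes 58.6% had a log2 fold change below 0, with a median of −0.03. The 5 adipocyte genes, of which Plin1, Fabp4 and Cidec are also in the triglyceride list, all had a log2 fold change below 0, with a median of −0.23. Their summed CPM was 34.9 to 40.4 in standard-low and 37.2 to 42.8 in low-low. The 7 oligodendrocyte genes had a median of −0.16 (5 below 0), the 5 measured astrocyte genes −0.12 (3 below 0), the 5 microglia genes −0.08 (5 below 0), the 6 neuron genes 0.04 (2 below 0) and the 5 endothelial genes 0.00 (2 below 0).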
